A study of Homo sapiens with 9 samples.

Results

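The human *HOX* genes of clusters A to D were followed in LNCaP cells, an androgen-sensitive line from a lymph node metastasis of prostate cancer. Members were the genes whose symbol is HOX, a cluster letter and a number, of which 37 of the 19984 genes in the table are described. There were 10 in the *HOXA* cluster and 9 in each of *HOXB*, *HOXC* and *HOXD*. RNA-seq of polyadenylated RNA was made from 3 cultures of each of 3 clones, namely 1 wild-type (WT) clone and 2 in which CRISPR-Cas9 had removed the promoter and the first exons of *EPCART* (del-4, del-56), all grown for 48 hours in medium with serum. *EPCART* is a long noncoding RNA gene of chromosome 2, and the comparison asks what changes in the transcriptome when this part of the gene is missing. Each clone is 1 line, so the deletion and other differences between clones cannot be told apart. Both deletion clones were set against the same 3 WT libraries, and p-values measure only the spread between cultures of a clone.

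*HOX* genes encode homeodomain transcription factors that set position along the body axis and the limbs. They lie in clusters in which the order of genes along the chromosome follows the order of the body regions in which they act, and genes in the same place of different clusters are called a paralog group. Low groups act towards the head, and high groups act in the lower trunk, the limbs and the urogenital tract, from which the prostate arises. HOX proteins bind DNA with cofactors of the TALE class, Polycomb complexes keep silent clusters packed, Trithorax proteins keep active ones open, and retinoic acid and CDX factors open clusters in the embryo.

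The clusters lie on 4 chromosomes of GRCh38 (GENCODE version 44). The *HOXA* genes described span chromosome 7 from 27100354 to 27200091 on the minus strand (99.7 kb), and *HOXB* spans chromosome 17 from 48528526 to 48633572, also on the minus strand (105 kb). *HOXC* spans chromosome 12 from 53938831 to 54056030 (117 kb) and *HOXD* spans chromosome 2 from 176092721 to 176190907 (98.2 kb), both on the plus strand. *EPCART* is on the chromosome of the *HOXD* cluster, and the primers that the study lists for *EPCART* begin 3932444 bases beyond the end of the cluster. The promoters printed here are of members that were lower by more than 1 on the log2 scale (2-fold) in both deletion clones and that have an entry in the RefSeq table used here (GRCh38.p14), which gave *HOXA11* and *HOXA13*, and show the start of posterior genes that fell in both clones. No promoter is printed for *HOXB5*, *HOXC10* and *HOXC12*, whose falls in del-4 were larger. They run from 250 bases before to 50 bases after the start of the gene, 5′ to 3′ on its own strand, and capitals mark a searched motif.
HOXA11: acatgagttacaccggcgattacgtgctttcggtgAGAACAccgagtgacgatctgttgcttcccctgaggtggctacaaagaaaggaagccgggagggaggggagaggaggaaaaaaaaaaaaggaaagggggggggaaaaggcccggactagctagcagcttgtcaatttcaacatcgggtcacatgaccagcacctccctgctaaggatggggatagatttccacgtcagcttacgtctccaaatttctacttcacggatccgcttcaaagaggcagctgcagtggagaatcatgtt
HOXA13: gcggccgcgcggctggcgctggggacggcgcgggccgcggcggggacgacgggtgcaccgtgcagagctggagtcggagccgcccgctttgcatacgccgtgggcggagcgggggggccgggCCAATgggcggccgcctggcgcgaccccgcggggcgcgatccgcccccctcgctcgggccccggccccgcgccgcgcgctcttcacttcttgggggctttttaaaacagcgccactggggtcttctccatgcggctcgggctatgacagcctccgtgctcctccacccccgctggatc
The *HOXA11* promoter lies at chr7:27185183-27185482 and the *HOXA13* promoter at chr7:27200042-27200341, both on the minus strand. Motifs were searched on both strands by their letters, namely the TATA box TATAAA, the CCAAT box, the androgen receptor core AGAACA, the posterior HOX core TTTAT and the composite of PBX and HOX proteins TGATNNAT. The *HOXA11* promoter held AGAACA from position -215, and the *HOXA13* promoter held CCAAT from position -128. Across 35116 RefSeq promoters of this length, 14.8% held AGAACA and 34.6% held CCAAT, and of the 27 promoters of members with an entry 5 and 18 did. The *HOXA13* window was rich in CpG, with 44 CpG and 76.3% G or C, against 13 CpG and 51.3% in *HOXA11*. The median was 14 CpG over all promoters and 22 over those of members. A match describes the letters and is no evidence of a bound site.

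The libraries held 91074556 to 118877134 reads on genes, and *HOX* levels are given as normalized counts, reads divided by a size factor near 1. Luminal prostate markers were high in every library (summed normalized count 287908 to 344119 for 10 genes). Their sums were 324971 to 344119 in WT, 316044 to 321017 in del-4 and 287908 to 298627 in del-56, without overlap between clones. Medians were 0 for *TP63* and *KRT5* (basal), *INSM1* (neuroendocrine) and *CD3E* and *PTPRC* (leukocyte). Other markers of these lists were read, with medians of 147 for *SYP* (neuroendocrine, 102 to 236 across libraries), 30.7 for *KRT14* (basal) and 531 for *CD68* (leukocyte). *COL1A1*, a fibroblast marker that was read in all clones, had a median of 1183, and its summed list was 1212 to 1450.2 in del-4, 1294 to 1446 in del-56 and 1101 to 1172 in WT. Summed leukocyte markers, mostly *CD68*, were 557 to 577 in del-4, 529 to 576 in del-56 and 486 to 519 in WT. Of these markers, 3 of 4 basal, 3 of 4 neuroendocrine, 3 of 4 leukocyte and 2 of 5 fibroblast genes had medians under 10. The part of other cell types in the results was not tested. In a bulk sample, fewer cells of a kind and less RNA per cell cannot be told apart.

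Which *HOX* genes these cells used differed by cluster. *HOXA*, *HOXB* and *HOXC* were read and *HOXD* was close to silent. Of the 37 members, 32 had a read in some library, and the 5 with none were all in *HOXD* (*HOXD4*, *HOXD9*, *HOXD10*, *HOXD11* and *HOXD12*). No *HOXD* gene had more than 6 reads in a library. The highest single count was 2177 reads in *HOXA*, 426 in *HOXB* and 4690 in *HOXC*. Over the 9 libraries, 14 members averaged at least 100 normalized counts, 5 of *HOXA*, 4 of *HOXB* and 5 of *HOXC*. A further 5 members outside *HOXD* never passed 10 reads, 4 of *HOXB* and *HOXC11*. Silence below about 3 reads per library, close to a single fragment since both mates are mostly counted, could not be resolved.

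**Figure D1:**
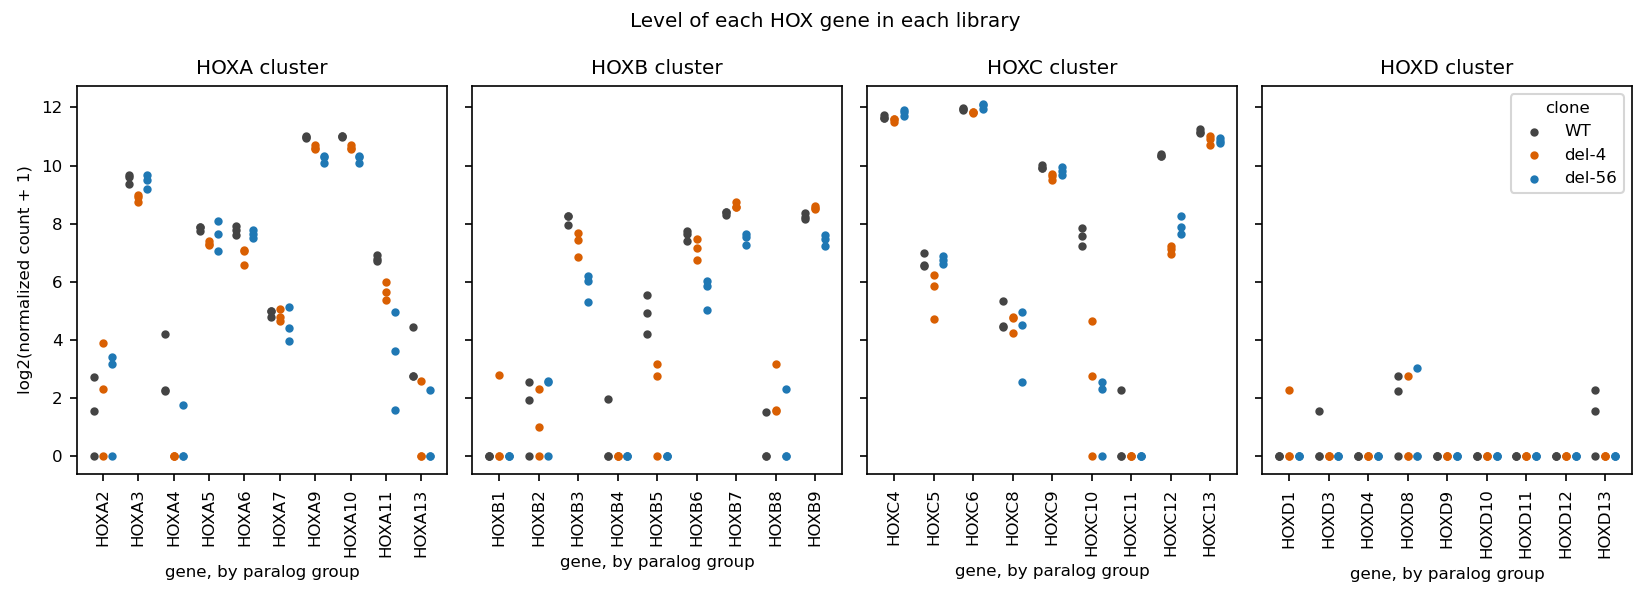
Level of 37 *HOX* genes as log2 of the normalized count plus 1 (y axis), 1 point per library, 3 libraries per clone, 1 panel per cluster with genes in order of paralog group (x axis). *HOXD* genes sit at or near 0 in every clone, and *HOXC12* and *HOXC10* stand apart between WT and both deletion clones.

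The plot of levels by cluster shows the members side by side, but reads on a long gene are more numerous, so levels of different genes are compared here per kilobase of exon. On that scale *HOXC4* was the highest of its cluster and of all members, and *HOXA9*, *HOXB7* and *HOXD8* led the other clusters. *HOXC4* (ENSG00000198353.8), which in B lymphocytes takes part in antibody class switching, had 1186 normalized counts per kilobase of exon in WT, against 1093 for del-4 and 1306 for del-56. *HOXA9* (ENSG00000078399.19), a regulator of blood stem cells, had 669 in WT, against 520.3 for del-4 and 398 for del-56. *HOXB7* (ENSG00000260027.5) had 216, 261 and 118, and *HOXD8* (ENSG00000175879.9) had 1.21, 0.731 and 0.922 in the same order.

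The per-length order carries a limit that bears on every overlapping *HOX* gene. Among nested gene pairs that share no exon, the surrounding gene had at least the count of the inner one in every library in 212 of 213 pairs on opposite strands (99.5%) and in 43 of 47 on the same strand (91.5%), against 39.5% of 10467 neighbouring pairs of a longer and a shorter gene that do not overlap. The deposited counts therefore behaved as reads over whole gene spans on either strand. Of the members, *HOXA3* to *HOXA6*, *HOXA9* with *HOXA10*, *HOXB3* to *HOXB6*, *HOXB7* to *HOXB9*, and *HOXC4*, *HOXC5*, *HOXC6*, *HOXC8* and *HOXC9* overlap and share reads. Counts of *HOXA10* were 0.979 to 1.01 times those of *HOXA9* across libraries, and those of *HOXB3* were 1.07 to 1.53 times those of *HOXB6*. The split of reads within such a group is uncertain. Antisense genes also cover spans of members, wholly in some cases, and their reads could not be separated from those of the members. Per kilobase of span, *HOXA10*, *HOXB9* and *HOXC13* led the first 3 clusters in place of *HOXA9*, *HOXB7* and *HOXC4*.

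Against WT, *HOX* genes passed the test downwards far more often than upwards. In del-4, 26 members passed the filter of a mean of at least 1, of which 16 were lower and 0 higher at an adjusted p under 0.05 (limma, Benjamini-Hochberg over all genes), against 20.2% lower and 20.5% higher among all genes. The counts for del-56 were 12 lower and 0 higher of 25, against 20.5% lower and 19.2% higher among all genes. At an unadjusted p under 0.05 in limma, 2 members (*HOXB7* and *HOXB9*) were higher in del-4, where 23.8% of all genes were, and 1 (*HOXC4*) in del-56, where 23.1% were. Of the count tools, edgeR called 1 member higher in each clone and DESeq2 0. Counting libraries alone, 17 members lay wholly below and 3 wholly above WT in del-4 (24.8% and 24.8% of all genes), and 13 and 0 in del-56 (24.8% and 24.0%). *HOXA4* in both comparisons and *HOXB5* in that of del-56 passed the filter only through WT. Of the 3 above WT in del-4, *HOXB8* passed the filter only through del-4. It had 2, 2 and 8 reads in the del-4 libraries and 0, 0 and 2 in those of WT. With a mean of at least 10 as the filter, del-4 had 14 members lower and 1 higher, and del-56 had 11 and 0. That filter too is a mean over both clones of a fit. *HOXB5* and *HOXC10* had means under 10 in both deletion clones and passed it only through WT. The median log2 fold change of the members tested was -0.43 for del-4 and -0.73 for del-56, beside -0.003 and -0.001 over all genes. Members that share reads, such as *HOXA9* and *HOXA10*, enter these counts and medians separately. The counts are therefore not of independent genes.

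**Figure D2:**
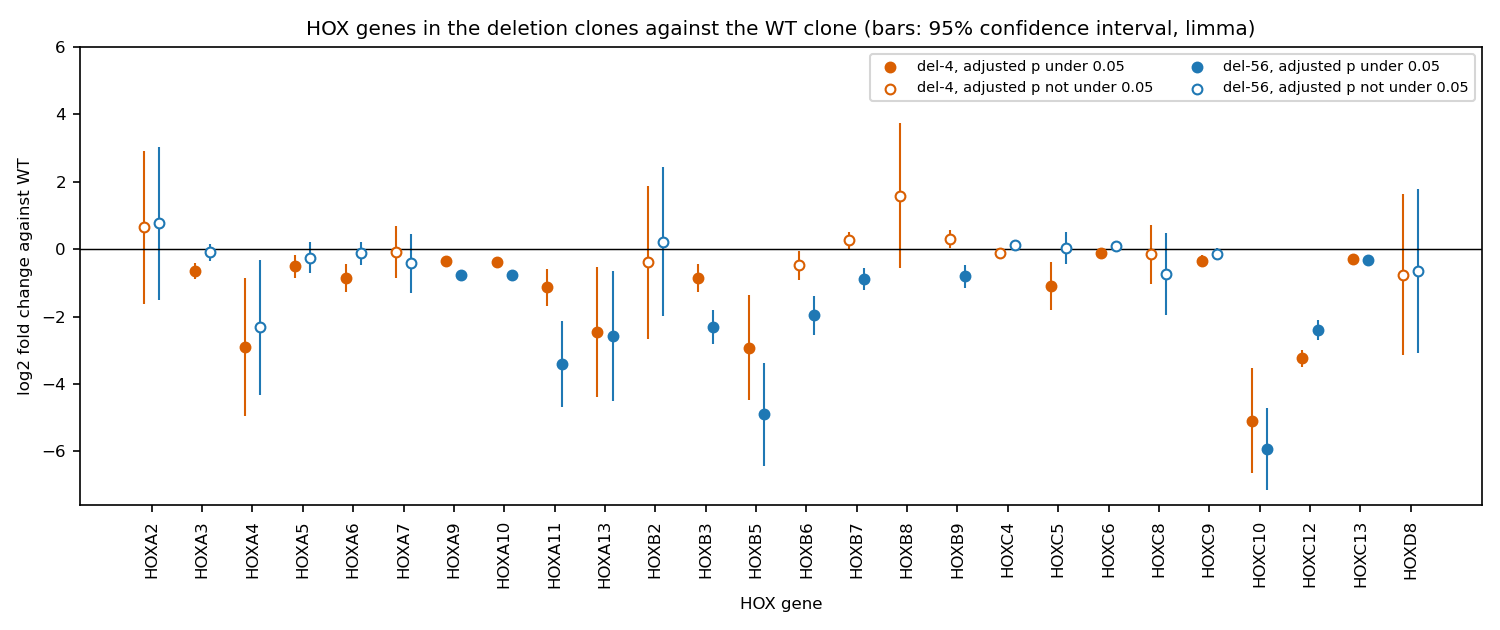
Log2 fold change against WT (y axis) of each *HOX* gene tested (x axis), del-4 in orange and del-56 in blue, with 95% confidence intervals from limma and filled points at an adjusted p under 0.05. All filled points lie below 0, from -0.12 for *HOXC6* to -5.09 for *HOXC10* in del-4.

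The plot of fold changes also shows where the falls lay along the clusters. At an adjusted p under 0.05 (limma), 20.2% of all genes were lower for del-4, against 20.5% for del-56. Of the posterior members (paralog groups 9 to 13), 8 of 9 tested were lower in del-4 and 8 of 9 in del-56. Of the central members (groups 4 to 8) 6 of 13 were lower in del-4 and 3 of 12 in del-56. Of the anterior members (up to group 3) 2 of 4 and 1 of 4 were lower. The posterior exceptions were *HOXB9* in del-4 and *HOXC9* in del-56. By cluster, 8 of 10 *HOXA*, 2 of 7 *HOXB* and 6 of 8 *HOXC* genes were lower in del-4, and 4 of 10, 5 of 6 and 3 of 8 in del-56. For del-56, the counts of 3 of 12 central and 1 of 4 anterior members lay near the share of all genes. The count of 2 of 7 *HOXB* genes for del-4 also lay near it. Differences between the counts by region or by cluster were not tested. Members that share reads, among them *HOXA9* and *HOXA10*, are counted separately in them. With a log2 fold change past 1 as well, 7 members were lower in del-4 and 7 in del-56, where 2.94% and 2.69% of all genes were lower by that rule. With an unadjusted p in its place the counts were 7 and 8, beside 3.52% and 3.25% of all genes.

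*HOXC12* (ENSG00000123407.4, chromosome 12, positions 53954903 to 53958956), a posterior gene whose span no other annotated gene overlaps, was the most abundant member with a large shift. The WT libraries had 1351, 1278 and 1269 normalized counts. Those of del-4 had 138, 149 and 123, and those of del-56 had 310.1, 201 and 238. The 3 clones did not overlap, with WT highest and del-4 lowest. The log2 fold change against WT was -3.24 (SE 0.117, limma adjusted p = 4.5e-13) in del-4, a 9.50-fold lower mean, and -2.40 (SE 0.133, limma adjusted p = 1.09e-09) in del-56, a 5.21-fold lower mean.

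*HOXC10* (ENSG00000180818.5, positions 53985065 to 53990279), which patterns the lumbar spinal cord and hind limb, lies 26108 bases from *HOXC12*, with *HOXC11* between them. It had 189, 149.6 and 232 normalized counts in the WT libraries, 5.76, 0 and 24.1 in those of del-4 and 0, 4.02 and 4.85 in those of del-56. All 6 deletion libraries were below all WT libraries, and the deletion clones overlapped each other. Log2 fold changes against WT were -5.09 (SE 0.738, limma adjusted p = 2.23e-05) in del-4 and -5.93 (SE 0.571, limma adjusted p = 6.41e-07) in del-56. The size rested on single libraries, since the del-4 value became -3.85 without del-4 replicate 2 or -6.18 when replicate 3 of that clone was left out. The del-56 value became -5.12 without del-56 replicate 1, and all of these passed the test. Its span shares 8.72% with the antisense *HOXC-AS3* and 85.0% with a readthrough gene, so reads of these could not be separated from its own. The neighbour *HOXC11* had at most 4 reads in a library.

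At the end of the cluster, *HOXC13* (ENSG00000123364.5), a regulator of hair and nail keratins, stayed abundant. It had 2216, 2286 and 2430.2 normalized counts in the WT libraries, 2074, 1676 and 1941 in those of del-4 and 1834, 1973 and 1770.4 in those of del-56. Each deletion library was below each WT library, by a much smaller step than in *HOXC12*, which lies 8358 bases away. Against WT the log2 fold change was -0.29 (SE 0.0703, limma adjusted p = 0.00289) and -0.31 (SE 0.0612, limma adjusted p = 0.000675).

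On the other side, *HOXC4* had 3210.3, 3430.2 and 3202 normalized counts in the WT libraries, 2878, 3076 and 3119.8 in those of del-4 and 3811, 3689 and 3344 in those of del-56. All del-4 libraries were below and del-56 overlapped WT. Its log2 fold changes of -0.12 in del-4 (limma adjusted p = 0.0712) and 0.14 in del-56 (limma adjusted p = 0.0579) did not pass the test. *HOXC6* (ENSG00000197757.8), which is often abundant in prostate tumors and shares reads with *HOXC4*, was lower by a small step in del-4 (log2 fold change -0.12, limma adjusted p = 0.0369), with 3651 ± 81.9 normalized counts against 3966 ± 90.8 in WT (SD, n = 3).

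*HOXC5* (ENSG00000172789.4), inside the span of *HOXC4*, had 93.7, 127 and 92.4 normalized counts in the WT libraries, 57.6, 73.7 and 25.1 in those of del-4 and 118, 96.4 and 107 in those of del-56. Only del-4 was apart from WT. The log2 fold change was -1.10 in del-4 (SE 0.337, limma adjusted p = 0.0139) and 0.05 in del-56 (limma adjusted p = 0.893, 95% interval -0.43 to 0.52). Without del-4 replicate 3 the del-4 value was -0.66 (limma adjusted p = 0.0809), and without WT replicate 2 it was -0.95 (limma adjusted p = 0.0798).

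**Figure D3:**
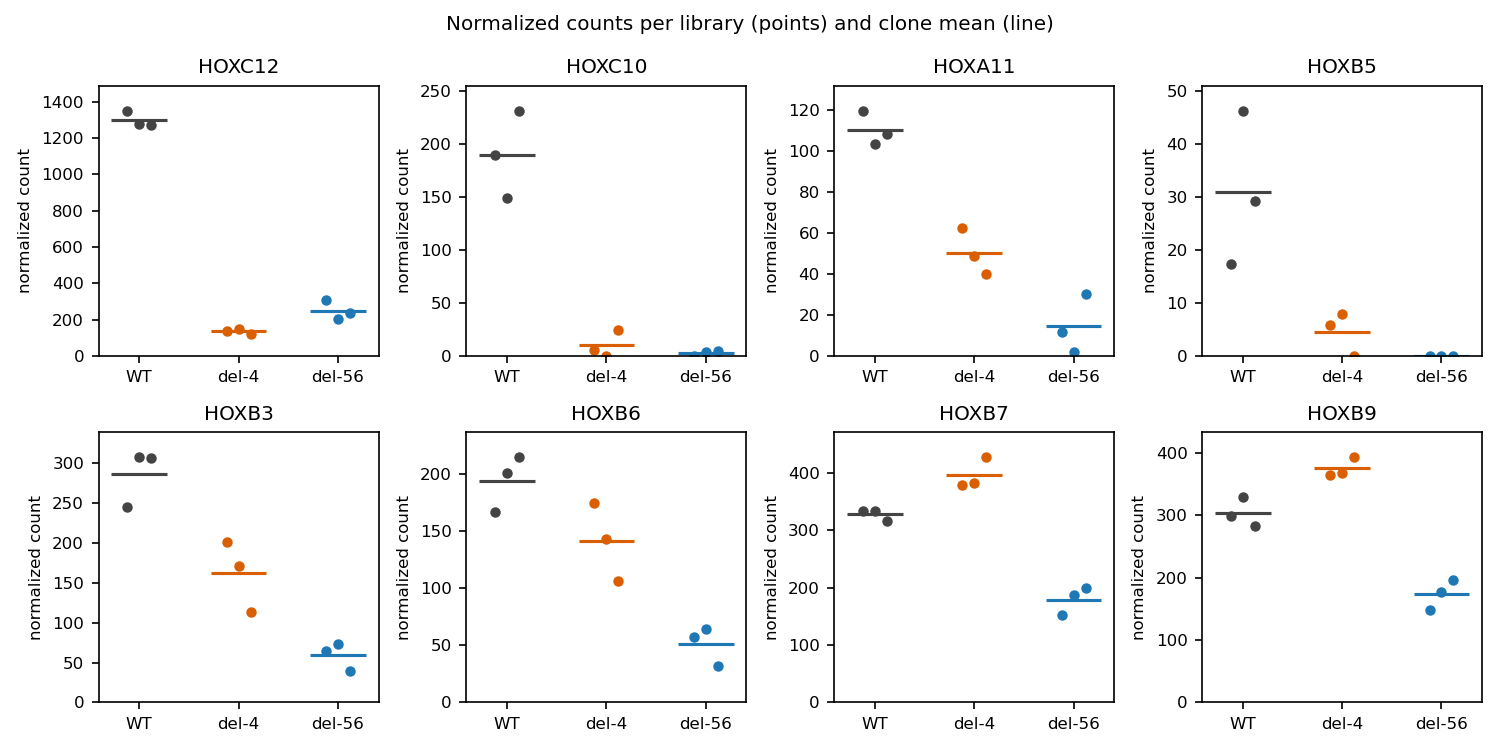
Normalized count (y axis, from 0) of 8 *HOX* genes in each library (points) with the mean of each clone (line), 3 libraries per clone. *HOXC12*, *HOXC10*, *HOXA11* and *HOXB5* are low in both deletion clones, whereas *HOXB3*, *HOXB6*, *HOXB7* and *HOXB9* are lowest in del-56 and *HOXB7* and *HOXB9* have their highest means in del-4.

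The panels of 8 genes set the steps of *HOXA* and *HOXB* genes beside those of *HOXC*. *HOXA11* (ENSG00000005073.6, chromosome 7, positions 27181157 to 27185232), needed for limb, kidney and uterus development, had 119.8, 103 and 108 normalized counts in the WT libraries, 62.4, 48.8 and 40.2 in those of del-4 and 11.4, 2.01 and 30.3 in those of del-56. The 3 clones did not overlap, in the order WT, del-4 and del-56. The log2 fold change was -1.14 (SE 0.257, limma adjusted p = 0.00162) in del-4 and -3.40 (limma adjusted p = 0.000286) in del-56. The del-56 value was -2.49 without del-56 replicate 2 and -4.18 without del-56 replicate 3, and passed in both. The antisense *HOXA11-AS* covers 17.8% of its span. The del-4 call was lost in 1 fit of all 9 libraries (limma adjusted p = 0.117, same log2 fold change).

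*HOXA13* (ENSG00000106031.9, positions 27193503 to 27200091), a gene of the limb and the urogenital tract, was near the floor. It had 5.80, 5.79 and 20.7 normalized counts in the WT libraries, 0, 0 and 5.02 in those of del-4 and 3.82, 0 and 0 in those of del-56. Every deletion library was below every WT library, by a few reads in most of them. The log2 fold changes of -2.46 (limma adjusted p = 0.0401) and -2.57 (limma adjusted p = 0.0333) did not pass in edgeR (adjusted p = 0.0992 and 0.0769) or DESeq2 (adjusted p = 0.0835 and 0.0581). Without WT replicate 3, which held most of its reads, they were -1.90 (limma adjusted p = 0.211) and -2.01 (limma adjusted p = 0.193). Without the 1 deletion library with reads, in either clone, the value was -3.32. The antisense *HOTTIP* covers 23.0% of the span of *HOXA13*.

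*HOXA4* (ENSG00000197576.14) had 3.87, 17.4 and 3.77 normalized counts in WT, 0 in each del-4 library, and 0, 0 and 2.43 in del-56. Set against a floor of 3 reads per library, its mean was at least 2.82-fold lower in del-4 (limma adjusted p = 0.0228). All del-56 libraries were below all WT libraries too, without passing the test (limma adjusted p = 0.062). Without WT replicate 2 the del-4 value lost its call (limma adjusted p = 0.163).

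*HOXA9* had 1993, 2075 and 2024 normalized counts in the WT libraries, 1663, 1542 and 1529 in those of del-4 and 1285, 1241 and 1097 in those of del-56. The clones again did not overlap and kept the order WT, del-4, del-56. In log2 terms the clones differed from WT by -0.36 (SE 0.0589, limma adjusted p = 7.03e-05) and -0.75 (SE 0.0696, limma adjusted p = 4.13e-07). *HOXA10* (ENSG00000253293.5), a gene of the uterus and prostate that shares reads with it, had -0.38 and -0.76. In the block *HOXA3* to *HOXA6* the falls were in del-4, with log2 fold changes of -0.65 in *HOXA3*, -0.51 in *HOXA5* and -0.86 in *HOXA6* (limma adjusted p = 9.4e-05, 0.0172 and 0.00157), while in del-56 none of these 3 passed (adjusted p = 0.591, 0.4 and 0.601, limma). The antisense *HOXA-AS3* covers 100% of the spans of *HOXA5* and *HOXA6* and 48.7% of that of *HOXA3*. *HOXA2* and *HOXA7* passed in neither clone.

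*HOXB5* (ENSG00000120075.6, chromosome 17, positions 48591257 to 48593779), a gene of the lung and gut, lies wholly inside *HOXB3* and the antisense *HOXB-AS3*. It had 17.4, 46.3 and 29.2 normalized counts in WT, 5.76, 7.97 and 0 in del-4, and 0 in each del-56 library. No deletion library reached the lowest WT library. The log2 fold change in del-4 was -2.92 (SE 0.742, limma adjusted p = 0.00402), moving to -1.93 without del-4 replicate 3 or to -3.52 if replicate 2 was left out, with the call kept, and in del-56 the mean was at least 9.77-fold lower than in WT against a floor of 3 reads per library (limma adjusted p = 5.08e-05).

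*HOXB3* (ENSG00000120093.12), a hindbrain gene, had 245, 308 and 307 normalized counts in the WT libraries, 202, 171 and 114 in those of del-4 and 64.9, 73.3 and 38.8 in those of del-56. The clones stepped down in that order without overlap. Their log2 fold changes were -0.85 (SE 0.198, limma adjusted p = 0.00204) and -2.30 (SE 0.241, limma adjusted p = 1.63e-06). *HOXB6* (ENSG00000108511.10), which overlaps it, had 167, 201 and 215 in the WT libraries, 175, 143 and 106 in those of del-4 and 57.2, 64.3 and 31.5 in those of del-56. For *HOXB6* del-4 overlapped WT (log2 fold change -0.47, limma adjusted p = 0.0716), and del-56 lay below both (-1.96, limma adjusted p = 2.71e-05). The antisense *HOXB-AS3* covers 98.6% of the span of *HOXB3* and 100% of that of *HOXB6*, so its reads could not be separated from theirs.

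*HOXB7* and *HOXB9* had a different order of clones. *HOXB7* had 334, 334 and 317 normalized counts in the WT libraries, 378, 382 and 428 in those of del-4 and 153, 187 and 199 in those of del-56. *HOXB9* (ENSG00000170689.10), a thoracic and mammary gland gene, had 299.6, 330.1 and 283, then 365, 369 and 394, and then 149, 177 and 196. In both genes del-4 was above and del-56 below all WT libraries. Against WT the log2 fold change was 0.27 and 0.31 in del-4 (limma adjusted p = 0.0884 and 0.0624) and -0.88 and -0.81 in del-56 (limma adjusted p = 0.000275 and 0.00078). Under quantile normalization 2 members were called higher in del-4 and 15 lower, in place of 0 and 16.

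*HOXD8*, the highest of its cluster, had 0, 5.79 and 3.77 normalized counts in the WT libraries, 5.76, 0 and 0 in those of del-4 and 0, 0 and 7.28 in those of del-56. No order of clones can be read from these few reads (limma adjusted p = 0.641 in del-4 and 0.695 in del-56). A difference in *HOXD* was not detectable at this depth.

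**Figure D4:**
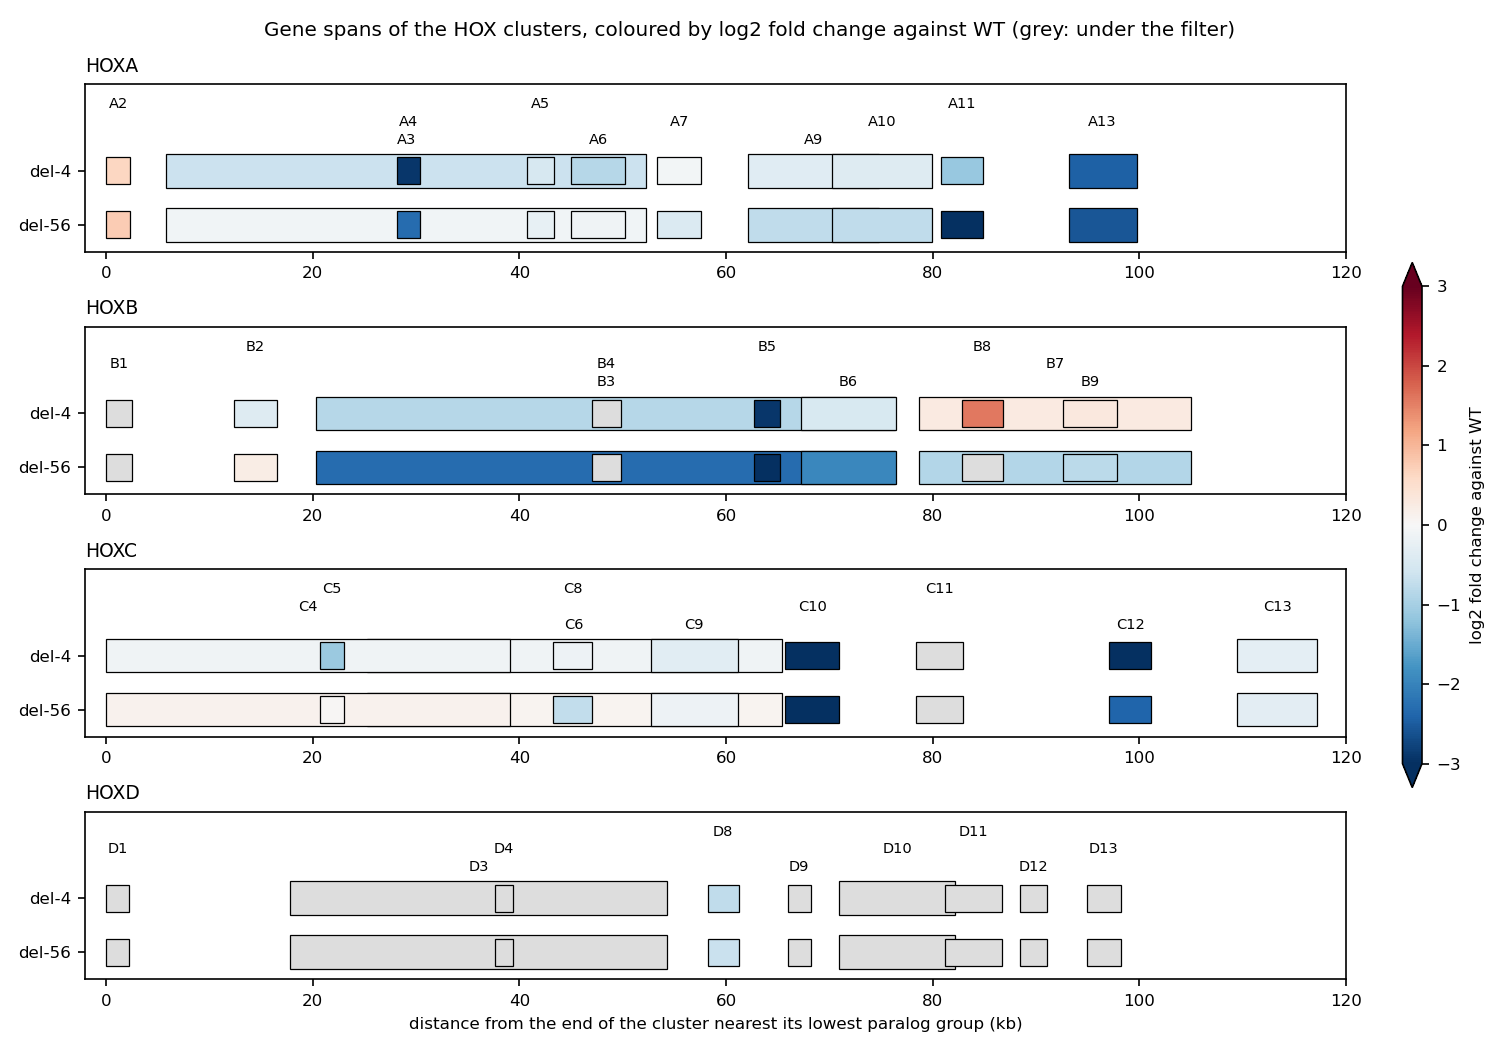
Gene spans of the 4 *HOX* clusters drawn to scale by distance in kb from the end nearest the lowest paralog group (x axis), with del-4 above del-56 (rows) and boxes coloured by log2 fold change against WT, grey where under the filter. Within the *HOXC* panel, blue boxes (lower than in WT) are deepest at *HOXC10* and *HOXC12*. *HOXB7* is pale red in del-4 and blue in del-56. The colour scale is capped, and *HOXA11* and *HOXB5* in del-56 also lie past its lower end.

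The map of gene spans places the largest falls in *HOXC* at *HOXC10* and *HOXC12*, and a smaller fall at *HOXC13* on the outside. On the inside, *HOXC5*, *HOXC6* and *HOXC9* were called lower in del-4 only, and *HOXC4* and *HOXC8* in neither clone. In *HOXB*, *HOXB3* and *HOXB6* were lower in del-56 than in del-4.

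The deletion clones were then compared directly, which does not use the WT libraries. Of 25 members tested, 13 differed at an adjusted p under 0.05 (limma), where 19.9% of all genes did. Counting libraries alone, the clones did not overlap in 13 of the 25, against 34.7% of all genes. These were the same 13 members, so the 2 counts are not separate results. In del-4, 7 were higher than in del-56 (*HOXA9*, *HOXA10*, *HOXA11*, *HOXB3*, *HOXB6*, *HOXB7* and *HOXB9*) and 6 were lower (*HOXA3*, *HOXA6*, *HOXC4*, *HOXC5*, *HOXC6* and *HOXC12*), where 10.9% of all genes were higher. Past 1 on the log2 scale were 6 of them at an adjusted p, as were 2.93% of all genes, and 6 at an unadjusted p, as were 4.28%. All 4 *HOXB* calls were higher in del-4 and all 4 *HOXC* calls lower. The largest was *HOXA11*, with a log2 fold change of 2.26 (SE 0.624, limma adjusted p = 0.0156), followed by *HOXB6* at 1.49 (adjusted p = 0.00135) and *HOXB3* at 1.45 (adjusted p = 0.00115), which share reads. Without del-56 replicate 2 the *HOXA11* value was 1.36 and lost its call (limma adjusted p = 0.0569), below the *HOXB6* value with all libraries, and without del-56 replicate 3 it was 3.05. *HOXC12* was 0.84 lower in del-4 on the log2 scale (limma adjusted p = 0.00383). *HOXC10* and *HOXC13* showed no call, with 95% intervals of -1.46 to 3.15 and -0.13 to 0.18.

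Genes with a start site within 2 megabases of *HOXB*, *HOXC* or *HOXD* had medians near those of all genes, while those around *HOXA* leaned lower. Distances were taken from the outermost members described, and the difference of these flanking genes from the members was not tested. The median log2 fold change of those tested was -0.12 for del-4 and -0.17 for del-56 around *HOXA* (16 genes in each), 0.03 and 0.07 around *HOXB* (66 and 68), -0.02 and 0.02 around *HOXC* (73 and 77), and -0.04 and -0.08 around *HOXD* (18 in each). Of the 16 around *HOXA*, 6 fell in each clone, while 0 rose in del-4 and 1 in del-56, against 20.2% of all genes lower and 20.5% higher for del-4, with 20.5% and 19.2% for del-56. Around *HOXB*, 14 rose and 10 fell for del-4, against 17 and 6 for del-56. Around *HOXC*, 14 rose and 11 fell in each clone, and around *HOXD* 3 rose and 4 fell in each. *EVX1*, a homeobox gene 42609 bases beyond *HOXA13*, was at 0 in the del-4 libraries, 2.62 ± 2.45 in del-56 and 8.95 ± 5.92 in WT (SD, n = 3), and passed in del-4 (limma adjusted p = 0.0111) but not in del-56 (limma adjusted p = 0.15). In the del-4 fit *EVX1* passed the filter only through WT, and it is among the 6 that fell around *HOXA* there. *SKAP2*, on the other side, had log2 fold changes of -0.30 and -0.29 (limma adjusted p = 1.21e-05 and 0.000217). *PRAC1*, a prostate-enriched gene beside the *HOXB* genes described, was higher by 0.32 and 0.38 on the log2 scale (limma adjusted p = 1.58e-05 and 5.95e-06). *SKAP1*, on the other side of the *HOXB* genes described, passed in neither clone. Beside *HOXC*, *CALCOCO1* and *SMUG1* passed in neither clone. Beside the near-silent *HOXD* cluster, *LNPK* was lower by 0.22 and 0.24 on the log2 scale (limma adjusted p = 0.0012 and 0.00172), and *MTX2* passed in neither.

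The cofactors with which HOX proteins bind DNA had calls in both directions. Of 11 TALE genes, 3 were higher and 3 lower in del-4, and 3 were higher and 2 lower in del-56 (limma, adjusted p under 0.05), with medians of -0.05 and 0.08. Among all genes 20.5% were higher and 20.2% lower for del-4, against 19.2% and 20.5% for del-56, and the TALE counts lie near these shares. *PKNOX2*, a partner of PBX proteins, had the largest fall, from 1142 ± 33.5 normalized counts in WT to 419 ± 45.2 in del-4 and 620.0 ± 41.1 in del-56 (SD, n = 3). Its log2 fold change was -1.45 (limma adjusted p = 1.47e-09) and -0.88 (limma adjusted p = 6.17e-07). *PBX2*, a direct HOX partner, rose by 0.31 and 0.28 on the log2 scale (limma adjusted p = 5.32e-06 and 9.24e-05).

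For chromatin regulators of *HOX* clusters the called steps were small, given here on the log2 scale. Of 21 Polycomb genes, 11 were higher and 2 lower in del-4, and 7 were higher and 4 lower in del-56, with medians of 0.13 and 0.08. The count of higher genes was above the share of all genes in both clones (20.5% and 19.2%), while the 4 lower in del-56 were near it (20.5%) and the 2 lower in del-4 under it (20.2%). *PHF19*, which brings Polycomb complex 2 to chromatin, rose by 0.54 and 0.36 (limma adjusted p = 5.44e-06 and 0.00161), and *EZH2*, the methyltransferase of that complex, fell by 0.14 and 0.25 (limma adjusted p = 0.0179 and 0.00131). Of 14 Trithorax and H3K27 demethylase genes, 4 were higher and 2 lower in del-4 and 3 higher and 2 lower in del-56, near the shares of all genes (20.5% and 20.2%, then 19.2% and 20.5%). *KDM6B*, which removes the Polycomb mark, rose by 0.22 and 0.26, and *DOT1L*, an H3K79 methyltransferase, fell by 0.17 and 0.21 (adjusted p from 0.00574 to 0.0127, limma).

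Among genes of retinoic acid and CDX input, 3 were higher and 1 lower of 12 tested in del-4, and 3 higher and 2 lower of 14 in del-56. The higher counts lay near the shares of all genes (20.5% and 19.2%), and the lower counts were under theirs (20.2% and 20.5%). *ALDH1A3*, which makes retinoic acid, fell by 0.80 and 0.66 on the log2 scale (limma adjusted p = 1.21e-09 and 8.98e-08). *CYP26B1*, which breaks it down, was higher in del-56 by 1.08 (limma adjusted p = 0.0241), at 56.6 ± 15.5 normalized counts against 26.1 ± 6.42 in WT (SD, n = 3), and its del-4 value was -0.05 (limma adjusted p = 0.948). *RXRA*, a retinoid receptor, rose by 0.28 and 0.10 (limma adjusted p = 1.53e-05 and 0.0408). *CDX2* had few reads and passed in neither clone.

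**Figure D5:**
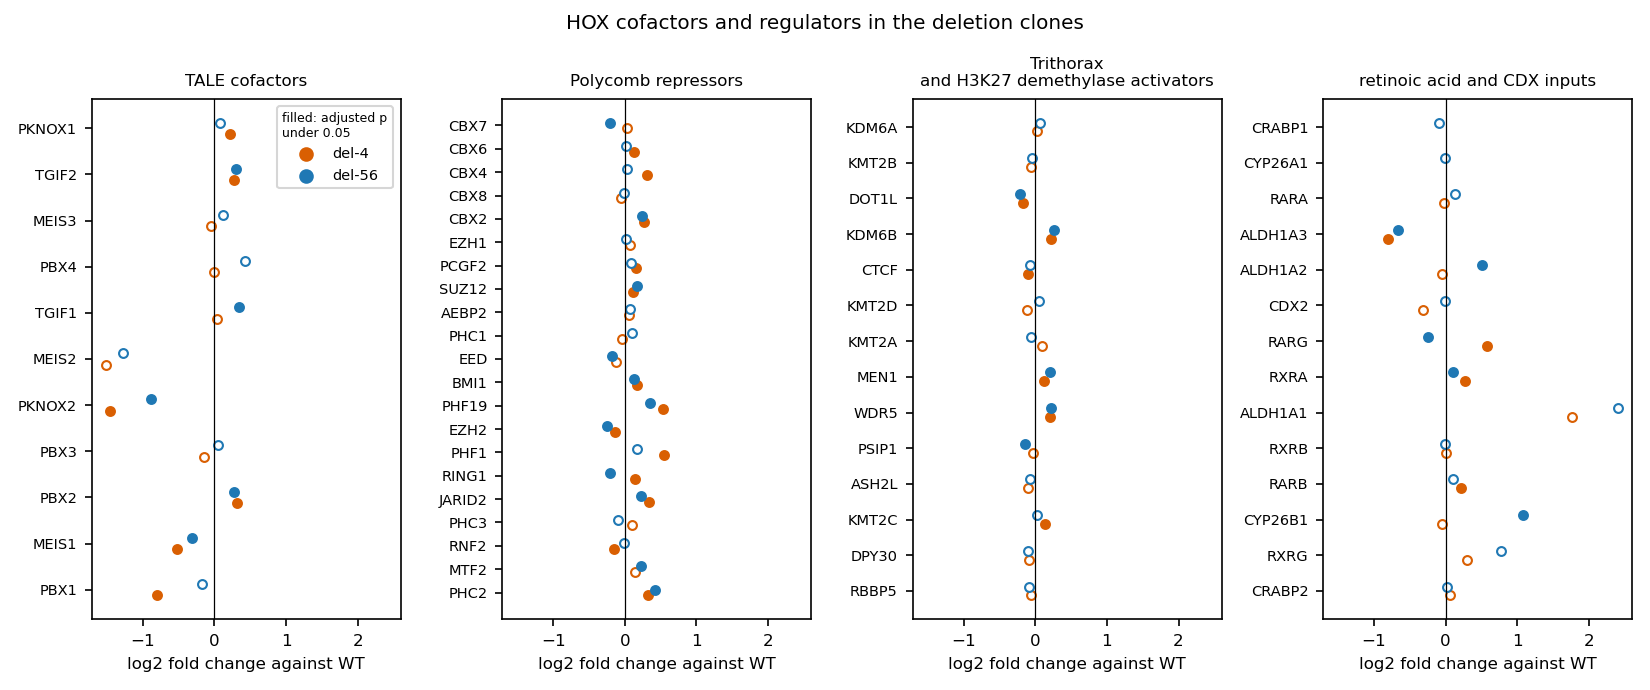
Log2 fold change against WT (x axis) of TALE cofactors, Polycomb and Trithorax genes and genes of retinoic acid and CDX input (y axis, 1 panel per list), del-4 in orange and del-56 in blue, filled at an adjusted p under 0.05. Most called points lie within 1 of 0, with *PKNOX2* at -1.45 in del-4 and *CYP26B1* at 1.08 in del-56 beyond it.

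In the plot of the regulator lists, the open points far from 0 (*MEIS2*, *ALDH1A1*) are genes of few reads. On the same scale the falls of *HOXC10* and *HOXC12* were larger than any called change in these lists.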

How the data were processed

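RNA-seq was measured in LNCaP cells, in 3 cultures of each of the clones del-4, del-56 and WT, grouped by clone. The authors trimmed paired reads with Trim Galore 0.6.5, aligned them to GRCh38 with STAR 2.71a and took read counts per protein-coding gene from BEDTools 2.27.1. In the deposited table each signal value is a normalized count, that is, the authors' reads over a DESeq2 size factor. Whole reads were recovered for 100% of values in all 9 libraries. Identifiers were matched to GENCODE version 44 (19923 genes, 61 not matched).

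Tests used limma 3.58.1 in R 4.3.3, with a variance trend, on log2 of the normalized count plus 1, for genes with a mean of at least 1 in the 6 libraries of a fit, with Benjamini-Hochberg adjustment over all genes tested. Fold changes on this scale understate low genes. The steps were tested on simulated data. Values in every library are given for members with an adjusted p under 0.05 and a log2 fold change past 1 in any comparison, and for the highest member of each cluster per kilobase of exon. *HOXC13* in every library, and other members named singly, were added after their values were seen. Of each list the members past 1 and the largest rise and fall were named, and of flanking genes the nearest. The members and lists were chosen with earlier results of these data known. Alternatives were pseudocounts of 0.5 and 5, no filter, a mean of at least 10, the same total per library, quantile normalization, 1 fit of 9 libraries, a replicate block, edgeR 4.0.16 and DESeq2 1.42.0 on recovered reads, a fold threshold and leaving out each library. Intervals are limma's, from the spread between cultures, and floors cover counting error only. *EPCART* itself was not analysed here, and 2 genes of the *HOX* clusters are not reported here.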

Additional observations from a re-analysis of the deposited data

Results flagged for a closer look

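The deletion clones differed from each other in 13 *HOX* genes by a direct test (limma, Benjamini-Hochberg adjusted p under 0.05, 3 libraries against 3), in which 19.9% of all genes differed. On the log2 scale, del-4 was above del-56 by 2.26 in *HOXA11*, 1.49 in *HOXB6*, 1.45 in *HOXB3*, 1.15 in *HOXB7*, 1.11 in *HOXB9*, 0.39 in *HOXA9* and 0.38 in *HOXA10*. The log2 fold change of del-4 against del-56 was -1.15 in *HOXC5*, -0.84 in *HOXC12*, -0.73 in *HOXA6*, -0.56 in *HOXA3*, -0.26 in *HOXC4* and -0.21 in *HOXC6*. Counting libraries alone, the clones did not overlap in 13 of the 25 members tested, the same 13, against 34.7% of all genes. Several of these genes share reads (*HOXB3* with *HOXB6*, *HOXB7* with *HOXB9*, *HOXA9* with *HOXA10*, *HOXC4* with *HOXC6*), and each clone is 1 line, so clone and deletion cannot be told apart.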

How the results depend on the processing

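Of 445 alternative values for 28 results of named *HOX* genes, 417 kept their direction and side of the threshold, 28 lost the call and 0 reversed. The losses were in *HOXA13* (10 in del-4 and 8 in del-56), *HOXA4*, *HOXA11* and *HOXC5*. The call of *HOXA11* between the deletion clones was lost without del-4 replicate 1 or 2 or del-56 replicate 2, and that of *HOXC5* without del-4 replicate 3 or del-56 replicate 1 or 3. The cause was not tested. Values near a few reads are limited by depth.

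With 1 library left out, 11 to 15 members were called in del-4 (16 with all, fewest without WT replicate 2), 11 to 14 in del-56 (12 with all) and 11 to 12 between the deletion clones (13 with all). The Trithorax count in del-4 was 3 to 4 in place of 6 (3 without del-4 replicate 2 or any 1 WT library), and the retinoic acid and CDX count in del-56 was 2 to 4 in place of 5 (2 without del-56 replicate 1 or 2 or WT replicate 2, 3 without WT replicate 1). With the same total per library, 8 Trithorax genes were called in del-56, in place of 5, and the median over all genes moved to -0.07 (del-4) and -0.03 (del-56).

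With a log2 fold change past 1 required, 7 members were called in del-4 at an adjusted or unadjusted p, 7 at an adjusted p in del-56 and 6 between the deletion clones at either. By these rules limma called 1 TALE gene in del-4 and 0 in del-56, 0 Polycomb and 0 Trithorax genes in both, and 0 retinoic acid and CDX genes in del-4 with 1 (adjusted) or 2 (unadjusted) in del-56. Of 62 flanking genes called in each clone, 7 in del-4 and 8 in del-56 were past 1 at an adjusted p and 10 in each at an unadjusted p.

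Replicate numbers were not used as pairs in the main fits. Same-numbered libraries of different clones correlated at -0.05 to 0.06 in their deviations from the clone means, while 7 of 9 libraries correlated best with their own number. These values do not settle whether the numbers mark a pairing. With the replicate block 16, 11 and 13 members were called in the 3 comparisons, and the retinoic acid and CDX count in del-56 was 3.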
